A study of Mus musculus with 8 samples.

Results

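The insulin and insulin-like growth factor (IGF) signalling genes described here are Igf1, Insr, Igf1r, Irs1, Irs2, Igfbp3, Igfbp4, Igfbp5, Igfbp6 and Igfbp7. They were picked by gene symbol, and all 10 were found once each among the 49452 genes of a brown adipose tissue (BAT) expression table. The study sequenced total RNA, freed of ribosomal RNA, from BAT of male C57BL/6 mice, and values are FPKM (mapped fragments scaled to transcript length and to the size of the library). The 8 libraries form 4 groups of 2. A control pair kept at 22 °C (replicates 4 and 7) and a cold pair exposed to 4 °C over 24 h (replicates 2 and 11) were 10 to 12 weeks old. The diet groups, on normal chow or control diet (NCD, with replicate numbers 6 and 8) or on high-fat diet (HFD, with replicate numbers 2 and 6), were 32 weeks old after 28 weeks of feeding. According to the methods, the 4 °C exposure was 20 h of cold followed by 4 h of fasting, and it is not clear whether the mice at 22 °C fasted too. The cold effect and a fasting effect therefore cannot be told apart here. The labels call the control food chow whereas the methods describe a matched control diet. The cold pair and the diet pair differ in age, so tests compared each treated group with its own controls, and levels set side by side over all 4 groups are descriptions in which age and condition cannot be told apart.

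Insulin and IGF1 act through related receptor tyrosine kinases on the cell surface. The activated receptor phosphorylates insulin receptor substrate (IRS) adaptors, which recruit phosphoinositide 3-kinase (PI3K) and activate AKT, mTOR complexes and glucose uptake while holding FoxO transcription factors out of the nucleus. Outside the cell, secreted IGF-binding proteins (IGFBPs) hold IGFs and set how much reaches the receptor. In BAT, insulin drives glucose uptake and lipid synthesis, and the IGF1 receptor and insulin receptor are needed for normal development of the tissue.

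Across the 8 libraries, Igfbp7 had the highest mean level of the 10 genes, 51.5 FPKM, which lay above 96.7% of 20515 mRNA genes. Insr followed with 19.1 FPKM, then Igfbp4 with 16.9, Igfbp6 with 10.99, Igfbp3 with 10.5, Irs2 with 5.94, Igfbp5 with 5.23, Igf1 with 3.60, Irs1 with 2.58 and Igf1r with 1.22 FPKM. FPKM is scaled to transcript length, so these levels can be set side by side. All 10 genes were above 0 in all 8 libraries and passed the filter on low values in both comparisons. By the size of the smallest FPKM steps, the value with the least support rested on roughly 546 fragments (Igfbp6), a figure that bears on counting error only.

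**Figure D1:**
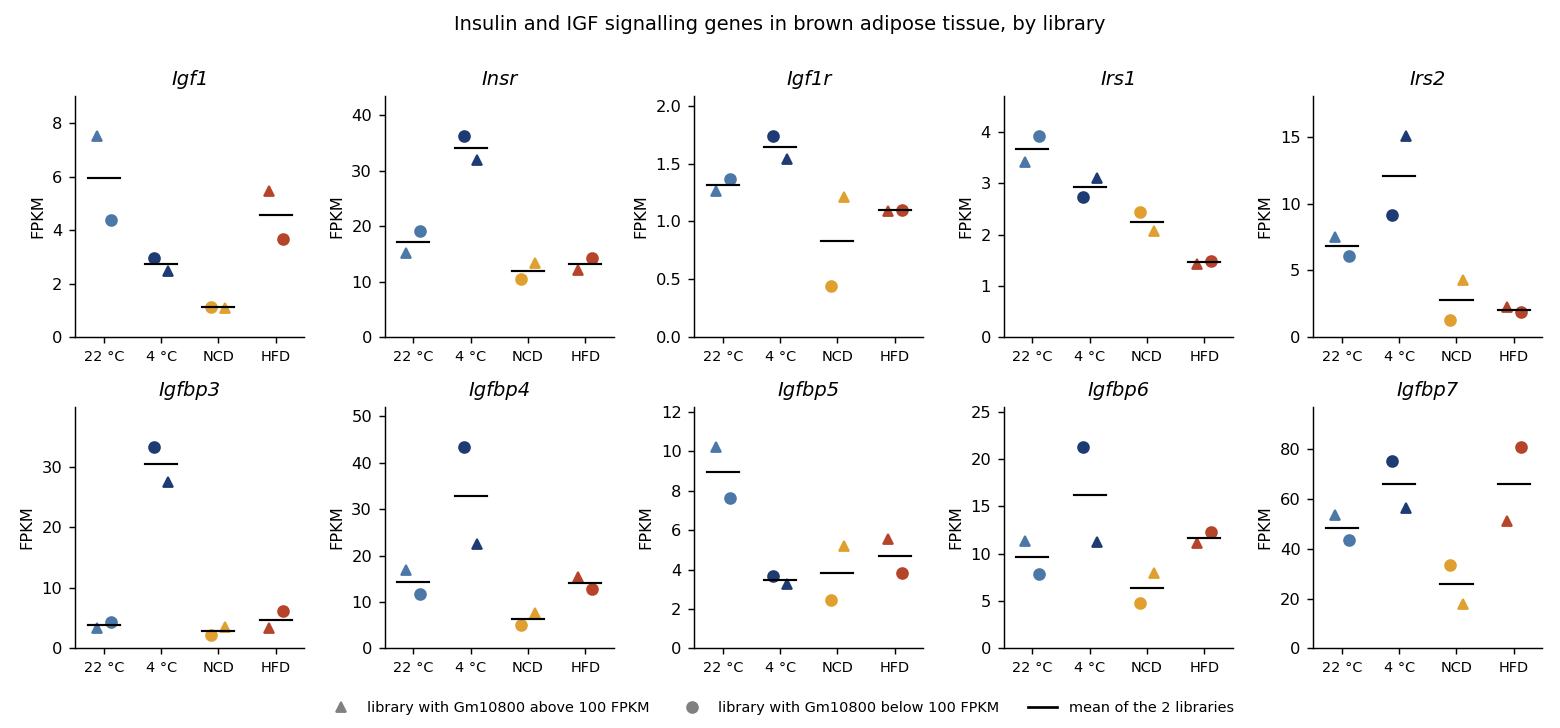
FPKM (linear axes starting at 0) of each gene in the 22 °C, 4 °C, NCD and HFD groups, 1 point per library, with the mean of the 2 libraries as a bar. Triangles mark the library of each group with Gm10800 above 100 FPKM and circles the other. Igfbp3 sits at 27.5 and 33.2 FPKM at 4 °C and at 6.15 FPKM or below in the other 6 libraries, and Igf1 is lowest in the NCD group.

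Between 10228 and 11436 genes reached 1 FPKM per library, and the Pearson r between the libraries of a group, across autosomal genes, ranged from 0.969 to 0.982. Some pairs from different groups were as close, with 0.981 between replicate 6 of NCD and replicate 6 of HFD. Each group had 1 satellite-high library, with the satellite-repeat transcript Gm10800 above 100 FPKM, and 1 satellite-low library. The satellite-high ones were replicate 4 at 22 °C, replicate 11 at 4 °C, replicate 8 under NCD and replicate 2 under HFD. Genes on X, Y and the mitochondrial genome are listed at 0, or nearly all so, in both 22 °C libraries and in NCD replicate 6, and were left out of the tests. None of the 10 genes lies there. Some FPKM outside the autosomes remained in 22 °C replicate 7 (sum 351150, autosomal 296839) and in NCD replicate 6 (526722 and 441460). In 22 °C replicate 4 none did (214794 for both sums). Ucp1, the uncoupling protein of brown adipocytes, reached 699 and 1427 FPKM in the controls at 22 °C, 6462 and 5371 FPKM in the 4 °C libraries, 3519 and 2300 FPKM in the NCD libraries and 2026 and 2976 FPKM in the HFD libraries, so a brown adipocyte marker was abundant in each. Of 10 brown adipocyte markers, both 4 °C libraries exceeded both 22 °C libraries for 6 and lay below for 1. Over all genes tested, these shares were 37.9% and 20.6%. Both HFD libraries exceeded both NCD libraries for 3 markers and lay below for 2, Cidea (0.467-fold) and Elovl3 (0.102-fold). The shares over all genes were 39.9% and 5.8%. Markers of other cells moved with the groups. Summed over 11 skeletal muscle markers, the 22 °C libraries had 597 and 142 FPKM, the 4 °C libraries 4405 and 2015, the NCD libraries 618 and 1569 and the HFD libraries 209.8 and 40.2. Summed over 10 macrophage markers, they had 112 and 81.0, 191 and 95.5, 151 and 59.8, and 333 and 361 FPKM in the same order. In whole tissue, fewer cells of a type and less RNA per cell cannot be told apart.

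The regulatory sequence just before the start site is shown for 3 of the genes. These are Igfbp3, which rose most in the cold, and the adaptors Irs1 and Irs2. The cold levels of the adaptors lay on opposite sides of their controls, but neither passed the tests given below. RefSeq promoters (GRCm38.p6) matched 9 of the 10 genes, all but Insr. Each window was searched on both strands for the FoxO core TGTTTAC, the cyclic AMP response element (CRE) TGACGTCA, its core TGACG (contained in the full element) and the E-box CACGTG. The sequences run 5′ to 3′ on the strand of the gene, over 250 bases that end just before the start site, and capitals mark matches.
Igfbp3, chr11:7213924-7214173, minus strand: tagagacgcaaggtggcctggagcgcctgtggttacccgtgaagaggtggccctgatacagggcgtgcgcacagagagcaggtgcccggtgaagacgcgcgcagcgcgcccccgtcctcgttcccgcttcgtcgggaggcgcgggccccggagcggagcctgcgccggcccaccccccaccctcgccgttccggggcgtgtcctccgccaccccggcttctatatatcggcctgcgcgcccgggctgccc
Irs1, chr1:82291440-82291689, minus strand: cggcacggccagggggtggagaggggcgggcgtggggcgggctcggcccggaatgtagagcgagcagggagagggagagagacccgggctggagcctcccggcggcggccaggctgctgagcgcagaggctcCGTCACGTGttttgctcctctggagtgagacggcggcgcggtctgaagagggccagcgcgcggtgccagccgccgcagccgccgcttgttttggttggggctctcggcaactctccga
Irs2, chr8:11008930-11009179, minus strand: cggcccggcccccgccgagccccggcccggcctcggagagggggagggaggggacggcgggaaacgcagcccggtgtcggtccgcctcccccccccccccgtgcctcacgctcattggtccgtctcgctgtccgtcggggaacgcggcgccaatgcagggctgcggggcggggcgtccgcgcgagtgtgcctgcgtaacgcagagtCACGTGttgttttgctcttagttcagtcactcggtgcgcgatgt
The E-box letters stood in the Irs1 and Irs2 windows, and in Irs1 they overlapped the core TGACG read on the opposite strand. All 3 windows were rich in G and C (73.2%, 72.4% and 72.8% for Igfbp3, Irs1 and Irs2). None of the other matched windows held any of the 4 motifs. Over 300-base windows, which add 50 bases after the start, 7.15% of 32851 mouse promoters held the E-box, 20.8% the core TGACG, 3.65% the FoxO core and 1.79% the full CRE. A match describes letters only.

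The first comparison asked how these genes differ in BAT after cold exposure. Igfbp3 was 7.85-fold higher at 4 °C than at 22 °C and was the only one of the 10 past threshold, set at an adjusted p under 0.05 with a log2 fold change of 1 or more up or down. Of 17477 genes tested with limma on log2(FPKM + 1), 1.44% were past threshold, 1.22% as higher and 0.223% as lower. In 6 of the 10 genes the 4 °C libraries both exceeded the 22 °C libraries (Insr, Igf1r, Irs2, Igfbp3, Igfbp4 and Igfbp7) and in 3 both were lower (Igf1, Irs1 and Igfbp5), while Igfbp6 overlapped. Over all genes tested, the shares were 37.9% above and 20.6% below. The median log2 fold change of the 10 genes was 0.54, that of all genes tested 0.07 and that of tested genes averaging 1 FPKM or more 0.21. With 2 libraries a group, an exact permutation test of a single gene cannot go below p = 0.333, so the calls rest on the spread that limma shares across genes.

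Igf1 encodes the ligand of the IGF1 receptor, which the liver releases into blood and many tissues make locally (GRCm38 chromosome 10, 87858265 to 87937042, plus strand). Its level was 7.54 and 4.40 FPKM at 22 °C and 2.96 and 2.49 FPKM at 4 °C. Both cold libraries were lower, though the 22 °C libraries differed from each other more than the cold ones did. The change of -0.87 on the log2 scale (SE 0.27, adjusted p = 0.138) was, within library types, -1.29 in the satellite-high and -0.45 in the satellite-low libraries. Igf1 did not pass the threshold at 4 °C, except after median centring (-1.13, adjusted p = 0.0454), and its change was -0.54 without 22 °C replicate 4. The antisense gene Igf1os overlaps it and stood at no more than 0.271 FPKM.

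Insr encodes the insulin receptor (chromosome 8, 3122061 to 3279617, minus strand). Its level was 15.2 and 19.2 FPKM at 22 °C and 36.3 and 31.9 FPKM at 4 °C, so the cold libraries did not overlap the controls and their mean was 1.99-fold higher. The log2 fold change was 0.96 (SE 0.22), with differences of 1.03 and 0.89 within satellite-high and satellite-low libraries, but the adjusted p was 0.0828. Quantile normalization and rescaling to the autosomal sum lowered the change to 0.53 and 0.55. Igf1r encodes the IGF1 receptor (chromosome 7, 67952827 to 68233668, plus strand). Its level was 1.26 and 1.36 FPKM at 22 °C and 1.74 and 1.54 FPKM at 4 °C. Igf1r was the lowest expressed of the 10 genes with a small difference, 0.19 in log2 units (SE 0.15, adjusted p = 0.462), in a direction that turned under median centring (-0.07) and under rescaling to the autosomal sum (-0.05). The level of Insr was 12.01 and 14.1 times that of Igf1r in the 22 °C libraries and 20.9 and 20.7 times in the 4 °C libraries. This ratio is taken within a library and does not depend on the scaling between libraries.

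Irs1 and Irs2 encode the adaptors that carry the signal from the receptors to PI3K. Irs1 (chromosome 1, 82233101 to 82291416, minus strand) was at 3.42 and 3.92 FPKM at 22 °C and at 2.74 and 3.11 FPKM at 4 °C. Irs2 (chromosome 8, 10984681 to 11008458, minus strand) was at 7.50 and 6.10 FPKM at 22 °C and at 9.14 and 15.1 FPKM at 4 °C. The cold libraries were lower for Irs1 and higher for Irs2, each without overlap, but neither passed the test: the log2 fold changes were -0.25 (SE 0.18, adjusted p = 0.434) and 0.72 (SE 0.28, adjusted p = 0.199). The change of Irs2 was 0.38 without 4 °C replicate 11 and 1.05 without 4 °C replicate 2. The ratio of Irs2 to Irs1 within a library was 2.19 and 1.55 at 22 °C and 3.34 and 4.85 at 4 °C. Gm9747 lies on the opposite strand of Irs1 at 4.47 to 6.57 FPKM in the 22 °C, 4 °C and NCD libraries. Whether strand was used in making the FPKM is not given in the sources used here, so reads of Irs1 and Gm9747 may be split between them.

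Among the binding proteins, Igfbp3 is the main carrier of IGFs in blood (chromosome 11, 7206086 to 7213923, minus strand). It was at 3.32 and 4.42 FPKM at 22 °C and at 33.2 and 27.5 FPKM at 4 °C. The gap between the groups was far wider than the spread within either. The log2 fold change was 2.69 (SE 0.22, adjusted p = 0.0206), and it was 2.72 within the satellite-high and 2.66 within the satellite-low libraries. The call was lost with no filter on low values (adjusted p = 0.181), with no intensity trend (0.0601) and without 4 °C replicate 2 (0.108), fits that called 0.0133%, 0% and 0.00595% of all genes, while the fold change stayed between 2.33 and 2.95 over 16 alternatives. No annotated gene overlaps Igfbp3. Skeletal muscle markers were higher in both cold libraries for 11 of 11 genes (median log2 fold change 3.30), beside 37.9% of all genes. The part of skeletal muscle in the result was not tested.

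Igfbp5, a binding protein that also attaches to extracellular matrix, moved the other way (chromosome 1, 72857932 to 72874884, minus strand). It was at 10.2 and 7.64 FPKM at 22 °C and at 3.67 and 3.26 FPKM at 4 °C. Both cold libraries were lower than both controls, by 1.40 and 0.89 on the log2 scale within satellite-high and satellite-low libraries. The log2 fold change was -1.14 (SE 0.21), and it was -1.33 without 22 °C replicate 7 and -0.95 without 22 °C replicate 4. The limma adjusted p of 0.0603 missed the threshold. It fell below 0.05 with median centring, quantile normalization, rescaling to the autosomal sum and a filter of 1 FPKM. The same held with X, Y and mitochondrial genes kept and with library type as a covariate (4 or 8 libraries). These fits called 2.81% to 5.12% of all genes, against 1.44% in the main fit. The 4 °C libraries thereby held 9.05 and 8.44 times as much Igfbp3 as Igfbp5, and the 22 °C libraries 0.325 and 0.579 times.

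Igfbp4, which inhibits IGF action until the protease PAPP-A cleaves it (chromosome 11, 99041244 to 99054392, plus strand), was at 16.8 and 11.6 FPKM at 22 °C and at 43.4 and 22.4 FPKM at 4 °C. The difference was 1.10 on the log2 scale (SE 0.37, adjusted p = 0.156), and the cold libraries differed by nearly as much from each other, so that the change was 0.39 within satellite-high and 1.81 within satellite-low libraries. Igfbp6, which prefers IGF2 over IGF1 (chromosome 15, 102144362 to 102149511, plus strand), was at 11.3 and 7.90 FPKM at 22 °C and at 21.3 and 11.2 FPKM at 4 °C, and the groups overlapped (log2 fold change 0.65, SE 0.35, adjusted p = 0.312). The change of Igfbp6 was 0.22 without 4 °C replicate 2 and 1.09 without 4 °C replicate 11. Igfbp7, a low-affinity member found in vessel walls (chromosome 5, 77349240 to 77408041, minus strand), was at 53.5 and 43.4 FPKM at 22 °C and at 75.4 and 56.4 FPKM at 4 °C. The log2 fold change of Igfbp7 was 0.43 (SE 0.26, adjusted p = 0.363) and turned to -0.13 under quantile normalization. The 3 genes were thus higher on average with no call. Igfbp7 overlaps Polr2b on the opposite strand, which stood at 9.52 to 17.8 FPKM.

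Summed over the 5 binding proteins, the level was 95.2 and 75.0 FPKM at 22 °C and 177 and 121 FPKM at 4 °C. Igfbp7 made up the largest share in every library. The share of Igfbp3 was 3.49% and 5.89% at 22 °C and 18.8% and 22.8% at 4 °C. Set against Igf1 mRNA, the summed level was 12.6 and 17.0 times as high at 22 °C and 59.7 and 48.5 times as high at 4 °C. These are ratios of mRNA levels and do not measure protein.

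**Figure D2:**
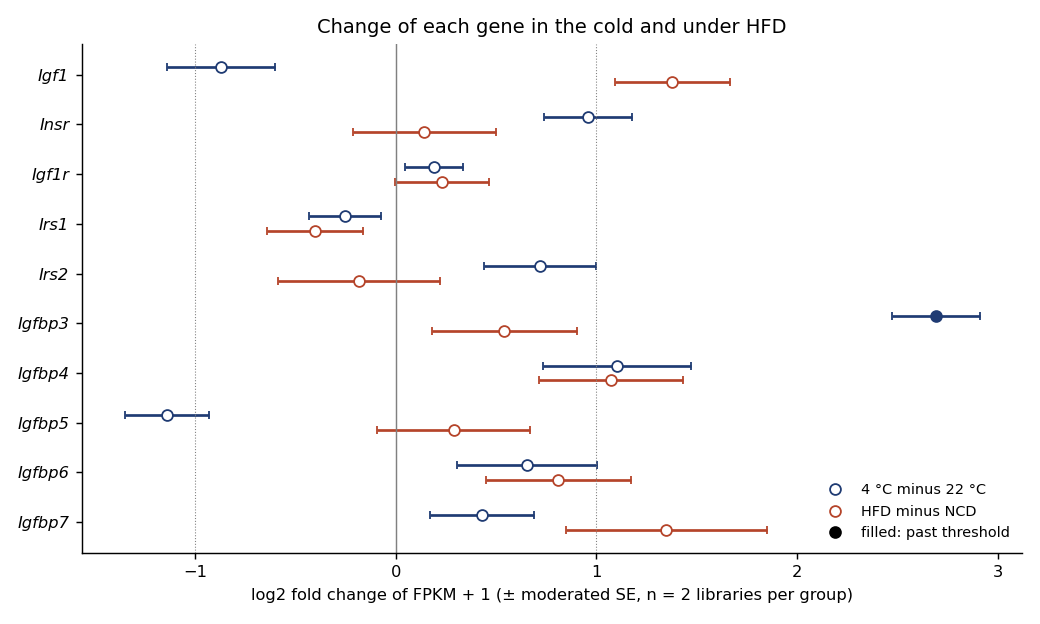
Log2 fold change of FPKM + 1 for each gene at 4 °C against 22 °C (blue) and under HFD against NCD (red), with limma's moderated standard error and n = 2 libraries a group. The filled point is past threshold, which was Igfbp3 at 4 °C (2.69), and Igf1 lies at -0.87 in the cold and at 1.38 under HFD.

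The second comparison asked how the genes differ in BAT of mice fed a HFD. In the fit of all 4 libraries, none of the 10 was past threshold by limma, against 0.0684% of 17543 genes tested (0.0513% as higher and 0.0171% as lower). At an unadjusted p under 0.05 there were 3 genes, all higher (Igf1, Igfbp4 and Igfbp7), against 14.4% of all genes tested. Fitted with no intensity trend, a setting added after the data had been seen, limma called 0% of all genes and so none of the 10. That fit had 4 of the 10 higher and 1 lower at an unadjusted p under 0.05, against 13.4% of all genes. Both HFD libraries lay above both NCD libraries for Igf1, Igfbp4, Igfbp6 and Igfbp7, below them for Irs1, and overlapped for the other 5 genes. Over all genes tested, 39.9% lay above and 5.8% below. The median log2 fold change was 0.41 over the 10 genes, 0.18 over all genes tested and 0.29 over tested genes averaging 1 FPKM or more. With library type as a covariate, Igf1, Igfbp4 and Igfbp7 were past threshold as higher (adjusted p = 0.00733, 0.0115 and 0.00892), in a fit that called 4.25% of all genes. In the label descriptions NCD replicate 6 carries the prefix of the 22 °C and 4 °C libraries, while NCD replicate 8 and both HFD libraries carry another, and the labels do not say what the prefix marks. Values without NCD replicate 6 therefore compare libraries of 1 prefix, with 1 NCD library that is assumed to vary like the others. In that fit the log2 fold change was 1.39 for Igf1, 1.78 for Igfbp7, 0.82 for Igfbp4, 0.49 for Igfbp6, 0.31 for Igfbp3, -0.32 for Irs1 and -0.78 for Irs2, and Igf1 alone of the 10 genes was past threshold (adjusted p = 0.0237), where 4.22% of 17188 genes were.

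Igf1 had the lowest p of the 10 genes under HFD. Its level was 1.14 and 1.11 FPKM under NCD and 5.47 and 3.69 FPKM under HFD, a mean 4.09-fold higher. The NCD libraries lay close together, and both HFD libraries were more than 3 times as high as either. The log2 fold change was 1.38 (SE 0.29, adjusted p = 0.151), with 1.62 and 1.14 within satellite-high and satellite-low libraries. Without NCD replicate 6 or without NCD replicate 8 the adjusted p was 0.0237 and 0.0476, and without HFD replicate 2 or HFD replicate 6 it was 0.160 and 0.0936. These fits called 4.22%, 1.35%, 2.08% and 0.584% of all genes, and in them the lone library is assumed to vary like the others. Over all 4 groups, whose mice differed in age, Igf1 was highest at 22 °C and under HFD, which overlapped, then at 4 °C, then under NCD. Macrophage markers were higher in both HFD libraries for 10 of 10 genes (median log2 fold change 1.75, no marker at 0 in any library) and fibroblast and preadipocyte markers for 8 of 10 (median 0.86). Of 7 white adipocyte markers tested, Lep (44.8-fold), Nnat (18.5-fold) and Npr3 (12.5-fold) rose past threshold under HFD (limma adjusted p = 0.0425, 0.0425 and 0.0449). The part of these cells in the result was not tested.

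Neither receptor passed the test under HFD. Insr was at 10.5 and 13.4 FPKM under NCD and at 12.1 and 14.4 FPKM under HFD (log2 fold change 0.14, SE 0.36, adjusted p = 0.888). Igf1r was at 0.444 and 1.21 FPKM under NCD and at 1.09 and 1.10 FPKM under HFD (log2 fold change 0.23, SE 0.23, adjusted p = 0.703). Both overlapped between the diets, and both turned below 0 under median centring (-0.21 and -0.13), under quantile normalization (-0.18 and -0.02) and without NCD replicate 6 (-0.02 and -0.08). NCD replicate 6 held the lowest value of each. As a consequence of that library, the ratio of Insr to Igf1r spanned 23.6 and 11.1 within NCD and was 11.1 and 13.1 under HFD.

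The adaptors had lower means under HFD. Irs1 was at 2.43 and 2.07 FPKM under NCD and at 1.43 and 1.48 FPKM under HFD (log2 fold change -0.40, SE 0.24, adjusted p = 0.502). Both HFD libraries were below both NCD libraries, and so were those of the overlapping Gm9747, at 5.25 and 4.47 against 2.73 and 3.15 FPKM. Irs2 was at 1.31 and 4.25 FPKM under NCD and at 2.23 and 1.91 FPKM under HFD (log2 fold change -0.18, SE 0.40, adjusted p = 0.871). The NCD libraries of Irs2 lay on either side of the HFD libraries, and the sign turned without NCD replicate 8 (0.41). As a description over mice of different ages, Irs1 was ordered 22 °C, 4 °C, NCD and HFD from high to low, with no overlap between neighbouring groups.

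Of the binding proteins under HFD, Igfbp7 was at 33.6 and 18.0 FPKM under NCD and at 51.2 and 80.8 FPKM under HFD. The change of Igfbp7 was 1.35 on the log2 scale (SE 0.50, adjusted p = 0.286), with 1.46 and 1.24 within satellite-high and satellite-low libraries, so both library types showed the difference. Igfbp4 was at 4.99 and 7.55 FPKM under NCD and at 15.4 and 12.8 FPKM under HFD (log2 fold change 1.07, SE 0.36, adjusted p = 0.245). Igfbp6 was at 4.82 and 8.01 FPKM under NCD and at 11.1 and 12.3 FPKM under HFD (log2 fold change 0.81, SE 0.36, adjusted p = 0.365). These 3 genes were higher in both HFD libraries. Igfbp3 and Igfbp5 overlapped between the diets. Igfbp3 was at 2.25 and 3.49 FPKM under NCD and at 3.32 and 6.15 FPKM under HFD (log2 fold change 0.54, SE 0.36, adjusted p = 0.548). The change of Igfbp3 was 0.18 without HFD replicate 6 and 0.90 without HFD replicate 2. Igfbp5 was at 2.44 and 5.18 FPKM under NCD and at 5.56 and 3.84 FPKM under HFD (log2 fold change 0.29, SE 0.38, adjusted p = 0.769), and its sign turned under median centring (-0.07), quantile normalization (-0.08) and without NCD replicate 6 (-0.13). The summed level of the 5 genes was 48.1 and 42.2 FPKM under NCD and 86.6 and 116 FPKM under HFD. Relative to Igf1 it was 42.4 and 38.2 times as high under NCD and 15.8 and 31.4 times as high under HFD.

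**Figure D3:**
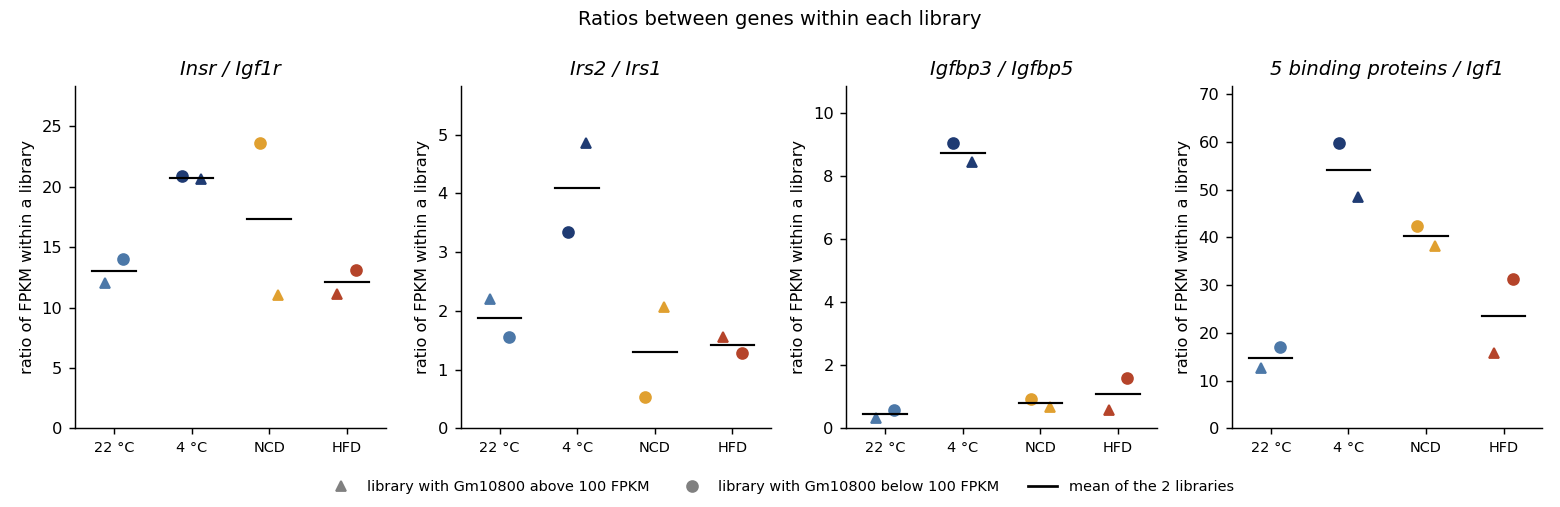
Ratios of FPKM between genes within each library (linear axes starting at 0), 1 point per library, with the mean of the 2 libraries as a bar and library types as triangles and circles. The ratio of Igfbp3 to Igfbp5 is 9.05 and 8.44 at 4 °C and at most 1.60 in the other 6 libraries, and the 5 binding proteins together stand at 59.7 and 48.5 times Igf1 at 4 °C.

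Whether the cold change differed from the diet change was tested as an interaction in 1 fit of all 8 libraries. Igf1 was past threshold, with a difference of -2.25 on the log2 scale (cold change minus diet change, SE 0.39, adjusted p = 0.0489), against 1.04% of 18902 genes tested (0.741% above 0 and 0.296% below). It was lower in both cold libraries and higher in both HFD libraries than in their own controls. The call was fragile: it was lost when any 1 of the 8 libraries was left out. Most of those fits, but not all, called a smaller share of all genes than the main fit. The difference itself stayed between -2.58 and -1.92 in them. Igf1 also lost the call with no filter on low values (adjusted p = 0.215), no intensity trend (0.0801), rescaling to the autosomal sum (0.0765), X, Y and mitochondrial genes kept (0.0611) and quantile normalization (0.0573). The difference for Igfbp3 was 2.15 (SE 0.44, limma adjusted p = 0.0647), and 2.38 without NCD replicate 6. It passed under quantile normalization (0.0432), under median centring (0.0323) and with library type as a covariate (0.0415). Those 3 fits called 2.21%, 2.46% and 3.17% of all genes, against 1.04% in the main fit. The difference was -1.43 for Igfbp5 (SE 0.45, adjusted p = 0.164). For the other 7 genes the adjusted p was 0.278 or above. Age differs between the cold and the diet pair, and its part in this difference cannot be told apart. Skeletal muscle markers also moved in opposite directions, higher in both cold libraries for 11 of 11 genes (median log2 fold change 3.30) and lower in both HFD libraries for 10 of 11 (median -3.67). Of 7 white adipocyte markers tested, 4 were higher and 2 lower (Lep and Nnat) in both cold libraries, and 5 higher and 0 lower under HFD. Of 10 fibroblast and preadipocyte markers, 0 were higher and 1 lower (Col3a1) in the cold, and 8 higher and 0 lower under HFD. Over all genes tested, 37.9% were higher and 20.6% lower in the cold, and 39.9% and 5.8% under HFD. Lep, Nnat and Col3a1 thus moved as Igf1 did, whereas Retn, Hoxc8, Agt and Npr3 were higher in both cold libraries. The other 9 fibroblast and preadipocyte markers overlapped in the cold. The part of these cells was not tested.

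The rest of the pathway was described through 60 other genes in 5 lists. In the cold, 56 were tested and 0 were past threshold by limma, against 1.44% of all genes. At an unadjusted p under 0.05, 13 were higher and 6 lower (19 and 5 with no intensity trend, a fit that called 0% of all genes). Over all genes, 24.5% had an unadjusted p under 0.05 (23.9% with no intensity trend). Both cold libraries lay above the controls for 29 and below for 14, where 37.9% and 20.6% of all genes did so. The median log2 fold change was 0.20, and it was 0.21 over all tested genes averaging 1 FPKM or more. With library type as a covariate, 5 passed (Irs3, Trib3, Mtor, Foxo1 and Hk2), in a fit that called 4.92% of all genes. The 4 genes with the largest changes are given with their values. Trib3, a pseudokinase that binds AKT, was at 0.933 and 1.76 FPKM at 22 °C and at 30.4 and 10.2 FPKM at 4 °C (log2 fold change 3.02, SE 0.51, adjusted p = 0.0547). With 1 library left out, the change of Trib3 ranged from 2.27 without 4 °C replicate 2 to 3.77 without 4 °C replicate 11. Hk2, the hexokinase that traps glucose in insulin-sensitive tissue, was at 13.2 and 19.6 FPKM at 22 °C and at 69.1 and 48.1 FPKM at 4 °C (log2 fold change 1.78, SE 0.30, adjusted p = 0.0535). Both genes were higher in each cold library, just short of the threshold. Irs3, the rodent adipocyte adaptor, was at 5.20 and 8.47 FPKM at 22 °C and at 1.47 and 2.19 FPKM at 4 °C (log2 fold change -1.45, SE 0.28, adjusted p = 0.0622). Foxo1, the transcription factor that insulin signalling restrains, was at 2.82 and 2.56 FPKM at 22 °C and at 7.37 and 6.78 FPKM at 4 °C (log2 fold change 1.13, SE 0.18, adjusted p = 0.0517). Among the 3 IRS genes tested, the cold means of Irs1 and Irs3 were thus lower and that of Irs2 higher, none past threshold.

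By list, the median cold log2 fold change was 0.10 for 8 genes of extracellular IGF control, 0.01 for 14 receptor-proximal adaptors and inhibitors, 0.23 for 15 genes of PI3K and AKT, 0.49 for 10 of the mTOR complexes and 0.67 for 9 FoxO and effector genes. In the extracellular list, Stc1, an inhibitor of PAPP-A, was the one gene with an adjusted p under 0.05 (0.0328), at 0.164 and 0.184 FPKM at 22 °C and 1.01 and 0.940 FPKM at 4 °C. Stc1 was singled out after its values were seen, and its log2 fold change of 0.75 on the log2(FPKM + 1) scale was under the size threshold.

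Under HFD, 54 of the 60 genes were tested and 0 were past threshold by limma, against 0.0684% of all genes. At an unadjusted p under 0.05, 9 were higher and 0 lower (also 9 and 0 with no intensity trend). Over all genes, 14.4% had an unadjusted p under 0.05 (13.4% with no intensity trend). Both HFD libraries lay above both NCD libraries for 27 genes and below for 1, where 39.9% and 5.8% of all genes did so. The median log2 fold change was 0.32, and it was 0.29 over all tested genes averaging 1 FPKM or more. Pik3r1, the regulatory subunit of PI3K, was at 14.1 and 3.87 FPKM under NCD and at 24.7 and 24.9 FPKM under HFD (log2 fold change 1.58, SE 0.55, adjusted p = 0.260). The change ranged from 0.77 without NCD replicate 8 to 2.40 without NCD replicate 6, where it passed (adjusted p = 0.000381) against a single NCD library, in a fit that called 4.22% of all genes. Htra1, a secreted protease that cleaves IGFBPs, was at 5.39 and 3.87 FPKM under NCD and at 11.4 and 11.8 FPKM under HFD (log2 fold change 1.17, SE 0.33, adjusted p = 0.194). Only these 2 of the 54 passed with library type as a covariate, in a fit that called 4.25% of all genes. Grb14, an inhibitor of the insulin receptor, was at 4.74 and 3.40 FPKM under NCD and at 8.29 and 8.27 FPKM under HFD (log2 fold change 0.89, SE 0.32, adjusted p = 0.275). Deptor, an inhibitor of mTOR, was at 9.80 and 10.9 FPKM under NCD and at 20.2 and 19.4 FPKM under HFD (log2 fold change 0.88, SE 0.35, adjusted p = 0.319). In these 4 genes both HFD libraries were higher. The list medians under HFD were 0.26 for 6 genes of extracellular IGF control, 0.55 for the adaptors and inhibitors, 0.32 for PI3K and AKT, 0.22 for the mTOR complexes and 0.26 for the FoxO and effector genes.

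**Figure D4:**
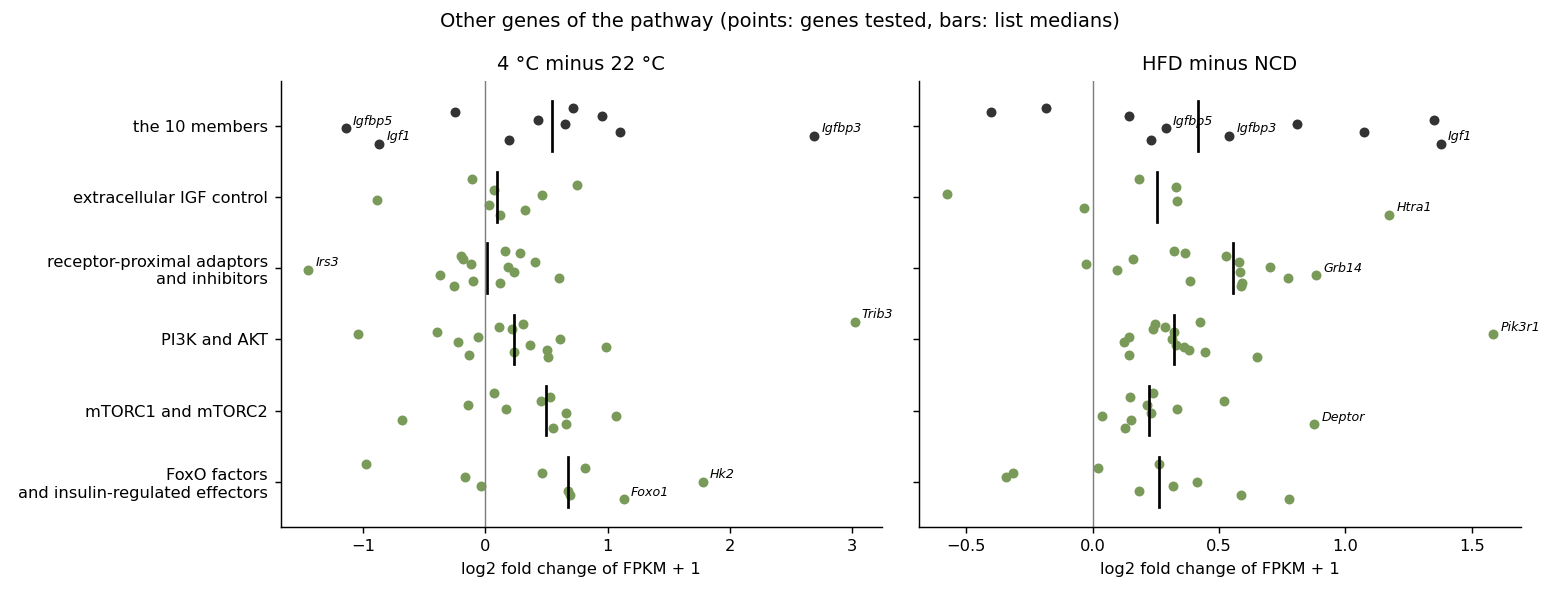
Log2 fold change of FPKM + 1 of the 10 genes (black) and of the other pathway genes by list (green), 1 point per gene tested, with list medians as bars, at 4 °C against 22 °C and under HFD against NCD. In the cold Trib3 lies at 3.02 and Igfbp3 at 2.69, and under HFD the 54 other pathway genes have a median of 0.32, beside 0.29 over all tested genes averaging 1 FPKM or more.

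Across the 8 libraries, levels on the log2 scale were compared among 9837 autosomal genes averaging 1 FPKM or more, as a description over libraries that share groups and library types. The genes with a pattern most like Igfbp3 were Ptar1 (Pearson r = 0.991), Slc39a14 (0.984), Opa1 (0.983), Sav1 (0.978) and Fam214a (0.978). Like Igfbp3, each was highest in the 4 °C libraries. Those most like Igf1 were Serpina3c (0.977), 2410002F23Rik (0.974), Cdsn (0.966), Hes1 (0.964) and Col3a1 (0.955). The fibrillar collagen gene Col3a1 stood at 90.0 and 50.1 FPKM in the 22 °C group and 106 and 51.8 FPKM in the HFD libraries, and from 14.2 to 30.1 FPKM in the other 4. Among the 10 genes, Insr and Igfbp3 were most alike (0.955), followed by Igfbp4 and Igfbp6 (0.939), and Igfbp3 and Igfbp5 least (-0.358).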

How the data were processed

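The deposited table holds FPKM for 8 libraries, 1 value per gene and library, which the authors made with TopHat2 2.0.10 and Cufflinks on GRCm38 (the submitters' notes give Cufflinks 2.2.1). Counts were not used here, so the planned count test was replaced by limma 3.58.1 in R 4.3.3 (lmFit, eBayes with an intensity trend) on log2(FPKM + 1), which understates changes of low genes. The filter was at least 0.1 FPKM in at least 2 libraries of a comparison, autosomal genes only. P-values were two-sided, adjusted by Benjamini-Hochberg over all genes tested. Groups came from the labels, which do not say that the libraries of a group are separate mice, so p-values measure the spread between these libraries.

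Members, lists and tests were chosen with earlier results of these data known. Named were the 10 genes, pathway genes past threshold or among the 4 largest changes at a mean of at least 1 FPKM, and the 5 genes most like Igfbp3 and Igf1, the genes with the lowest p in the cold and under HFD. Fits were tested on simulated data, and the outcome is not reported here. Of the 60 pathway genes, Irs4 and Foxo4 are on X and were not tested. Igfbp1 and Pappa2 were below the filter in both comparisons, and Igfbp2 and Pappa under HFD. White adipocyte (9 genes), endothelial (10), pericyte and smooth muscle (8) and mesothelial markers (8) were examined too. In the cold, both libraries were higher for 6 and lower for 2 of 10 endothelial markers, for 5 and 3 of 8 pericyte markers and for 4 (Npr3 past threshold) and 2 (Lep and Nnat) of 7 white adipocyte markers tested, beside 37.9% and 20.6% of all genes. Under HFD they were higher for 6, 6 and 5, and lower for 0 in each list, beside 39.9% and 5.8%. Mesothelial markers summed to at most 1.30 FPKM, with Krt8, Msln, Upk1b, Upk3b and Wt1 listed at 0 in some library. Alternatives covered pseudocount, filter, scaling, library type, the fit over all 8 libraries and leaving out each library.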

Additional observations from a re-analysis of the deposited data

How the results depend on the processing

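Median centring, quantile normalization and rescaling to the autosomal sum without Ucp1 moved the median log2 fold change of all genes by -0.26, -0.10 and -0.18 in the cold and by -0.35, -0.18 and -0.08 under HFD. The share of all genes past threshold moved too: in the cold it was 1.44%, and 4.34% with median centring, 2.81% with quantile normalization, 2.95% with rescaling, 4.83% with a filter of 1 FPKM, 5.12% with X, Y and mitochondrial genes kept, 4.92% and 4.97% with library type (4 and 8 libraries), 0.0133% with no filter and 0% with no intensity trend. It was also 2.71% and 2.49% in the cold with a pseudocount of 0.1 and 0.5, and 2.51% in the fit of all 8 libraries. Under HFD it was 0.0684%, 0% with no intensity trend, and 4.25% and 2.5% with library type. The share also varied widely between fits with 1 library left out, so counts from those fits cannot be read against the main counts. For the difference it was 1.04%, and 2.46% with median centring, 3.17% with library type, 0.0508% with no filter, 0.984% with rescaling, 0.482% with X, Y and mitochondrial genes kept and 0.291% with no intensity trend. Relative to a main count of 1 in the cold, members past threshold numbered 3 with median centring, 2 with quantile normalization, rescaling, a filter of 1 FPKM, X, Y and mitochondrial genes kept, or library type as a covariate (in the fit of 4 or of 8 libraries), 0 with no filter or no intensity trend (added after seeing the data), and 0 to 2 with 1 library left out. Under HFD (main count 0) they numbered 3 with library type, 2 in the fit of 8 libraries with it, and 0 to 1 with 1 library left out. For the difference (main count 1) they numbered 2 with median centring or library type, 0 with no filter, rescaling, X, Y and mitochondrial genes kept or no intensity trend, and 0 to 1 with 1 library left out. The 1 with quantile normalization and the 1 without NCD replicate 6 were Igfbp3, not Igf1. Other pathway genes in the cold (main count 0) numbered 5 with median centring, X, Y and mitochondrial genes kept or library type (4 or 8 libraries), 4 with a filter of 1 FPKM, 3 with a pseudocount of 0.1 or 0.5, rescaling or all 8 libraries, 2 with quantile normalization, and 0 to 3 with 1 library left out. Under HFD they numbered 2 with library type and 0 to 1 with 1 library left out. For the difference they numbered 1 with median centring, rescaling or library type and 0 to 1 with 1 library left out. The log2 fold changes that turned in sign were those of Igf1r (-0.066 with median centring and -0.053 with rescaling in the cold; -0.13 and, with quantile normalization, -0.017 under HFD), Igfbp7 in the cold (-0.13 with quantile normalization) and, under HFD, Insr (-0.21, -0.18 and, with rescaling, -0.0069) and Igfbp5 (-0.066 and -0.078). With 1 library left out under HFD, they ranged from -0.021 to 0.31 for Insr, -0.079 to 0.54 for Igf1r, -0.78 to 0.41 for Irs2 and -0.13 to 0.71 for Igfbp5. The cause was not tested.

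The labels give no pairs. The 22 °C and 4 °C groups share no replicate number, and NCD and HFD share only number 6. Library type, which was used as a covariate, was read from the values and is not a pairing in the labels. With 2 libraries a group, fits that leave out 1 assume that the lone library varies like the others. Each member's value rested on roughly 546 fragments or more (counting error only).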
